A study of Homo sapiens with 16 samples.

Results

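The antisense RNAs of MDA-MB-231 cells were followed through exposure to the alkylating agent methyl methanesulfonate (MMS) and the kinase inhibitor sorafenib. They are the genes whose symbol ends in -AS and a digit, or begins with LINC and digits, and whose raw counts over 16 libraries summed to at least 160. Of 23228 genes counted, 26 met both conditions, and all 26 were antisense symbols. The files used here hold no LINC symbol, so intergenic RNAs of that name were not analysed here. Of 76 antisense symbols, 50 stayed below the sum, 16 of them at 0 in every library. The closest inside were A1BG-AS1 with 166 counts, ENTPD3-AS1 with 183 and MLK7-AS1 with 185, and the closest outside were NPPA-AS1 with 143, IDI2-AS1 with 122 and ADAMTS9-AS2 with 121. The members were chosen by their summed raw count over all groups, so their levels below are descriptions. For 2 of them the sum depended on the treatment. A1BG-AS1 had 115 counts in the 8 libraries that received MMS and 51 in the 8 that did not, so it would fall short of 160 if all libraries were like the second kind. ENTPD3-AS1 had 78 counts in the libraries with MMS and 105 in those without, and would fall short if all were like the first.

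An antisense RNA is read from the strand opposite to another gene, its sense partner, whose name it usually carries. Many start close to the partner's own start and run the other way, and some act on the partner's chromatin, transcription, splicing or RNA stability, while others work elsewhere or have no known function. Among those described here, ZNFX1-AS1 (also called ZFAS1) carries small nucleolar RNAs in its introns, AFAP1-AS1 is a long RNA known from many carcinomas, and ZEB1-AS1 lies beside ZEB1, a transcription factor of epithelial-mesenchymal transition.

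MDA-MB-231 is a mesenchymal breast cancer cell line without estrogen receptor. There were 8 groups of 2 libraries: the combination (1 µM sorafenib for 12 h, then MMS), MMS alone, 1 µM sorafenib alone and the vehicle DMSO, each at 8 h and 24 h, counted from MMS in the combination. For MMS the series text gives 40 µg/mL, whereas the sample labels give 40 µM. The libraries of a group are called independent experiments in the series text. The p-values rest on the spread between libraries within groups, estimated from all 8 groups together. Libraries held 16774156 to 26448212 gene counts, of which the 26 antisense RNAs took 5097 to 10690. Levels are counts per 1000000 gene counts of a library (CPM). VIM, a mesenchymal marker, lay between 1479 and 2476 CPM, and ESR1, the estrogen receptor gene, between 0 and 0.224 CPM. In bulk RNA, fewer cells with a transcript and less of it per cell cannot be told apart.

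Most of the antisense signal came from 3 RNAs. ZNFX1-AS1 averaged 170.2 CPM over the 16 libraries, AFAP1-AS1 90.9 CPM and TP73-AS1 30.3 CPM, and together they took 84.9 to 89.0% of the antisense counts of a library. Next were TTC28-AS1 at 7.71 CPM, TRAF3IP2-AS1 at 4.48 CPM, ZEB1-AS1 at 4.39 CPM, RBM26-AS1 at 3.60 CPM and FBXL19-AS1 at 3.17 CPM. The other 18 averaged 0.487 to 2.59 CPM. Per kilobase of exon in GENCODE v29 (GRCh38, a later build than the authors' hg19), ZNFX1-AS1 stood at 75.9 CPM, AFAP1-AS1 at 13.4 CPM, TP73-AS1 at 3.13 CPM, MFI2-AS1 at 1.28 CPM and ZEB1-AS1 at 1.15 CPM among the 25 with a gene model. The first 3 kept their order on that scale, and MFI2-AS1, short at 1139 exon bases, came next after them.

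In that annotation 23 of the 25 overlapped the span of their sense partner and 21 shared exon bases with it, with a median of 8.07% of their own exon bases and up to 60.0% for MORC2-AS1. A total of 13 started within 1000 bases of the partner's start. The strand setting of the counting is not given in the sources used here, so reads from an antisense RNA and from the partner exon opposite it cannot be told apart.

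The start regions of ZNFX1-AS1 and ZEB1-AS1 are shown because these were the antisense RNAs with a mean count of at least 50 that passed the test after MMS. Each window runs from 250 bases before to 50 after the annotated start in RefSeq (GRCh38.p14), and positions count from 1 at the start base, with no 0. The ZNFX1-AS1 window is chr20:49278392-49278691 on the plus strand, and the ZEB1-AS1 window shown is chr10:31319046-31319345 on the minus strand. RefSeq lists 2 windows for ZEB1-AS1, and the other, chr10:31320398-31320697 on the minus strand, held none of the 6 motifs searched. Capitals mark the motifs found and, in ZNFX1-AS1, the pyrimidine run at the start.
ZNFX1-AS1: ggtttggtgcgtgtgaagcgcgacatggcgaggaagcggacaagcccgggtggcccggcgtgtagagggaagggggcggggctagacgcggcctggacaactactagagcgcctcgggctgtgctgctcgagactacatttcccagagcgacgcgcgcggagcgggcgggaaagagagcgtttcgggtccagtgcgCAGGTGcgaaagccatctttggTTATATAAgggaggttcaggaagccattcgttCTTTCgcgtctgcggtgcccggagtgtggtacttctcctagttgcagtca
ZEB1-AS1: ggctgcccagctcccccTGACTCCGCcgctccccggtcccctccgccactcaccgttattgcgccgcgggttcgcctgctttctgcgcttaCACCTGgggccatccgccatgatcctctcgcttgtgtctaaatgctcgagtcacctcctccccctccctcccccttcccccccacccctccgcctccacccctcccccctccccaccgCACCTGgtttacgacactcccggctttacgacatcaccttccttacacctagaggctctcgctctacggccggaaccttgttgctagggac
Both strands were searched for the TATA box as TATANAA, the element of ATF4 with C/EBP as TGATGNAA, the cyclic AMP element as TGACGTCA, the AP-1 element as TGANTCA, the antioxidant element of NRF2 as TGACNNNGC and the E-box read by ZEB1 as CACCTG. The ZNFX1-AS1 window held overlapping matches to TATANAA at -32 and -31, one on each strand, a motif present in 9.10% of all 35116 windows of this length. It held CACCTG, read on the other strand, at -54, as 20.6% of windows do on either strand. Its start base was C, followed by pyrimidines to a run of 5, and 4.07% of windows start with C and such a run of at least 5. The ZEB1-AS1 window shown held TGACNNNGC at -233, present in 13.3% of windows, and CACCTG at -159 and -41. It shared 220 of its bases with one of the 7 start windows of ZEB1 on the opposite strand, and the other ZEB1-AS1 window shared 206. Among the members, 15 had a window in the table used and 11 did not. A motif match is a run of letters and not a shown binding site.

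The first question was what MMS alone did. At 8 h ZNFX1-AS1 rose, and it was the only one of the 26 antisense RNAs to pass the test. It stood at 195 and 178 CPM in MMS-treated cells, against 146 and 146 CPM in DMSO-treated cells. The groups did not overlap, and the log2 change was 0.39 ± 0.08 (SE, n = 2 libraries each, adjusted p = 0.0036 in edgeR's quasi-likelihood test). With 2 libraries a group such a gap was common among the antisense RNAs and is weak evidence by itself: 14 of the 26 had it here. The share of all genes with such a gap was not counted, here or in the comparisons below. Over all 13948 genes tested, 26.5% passed at 8 h, so 1 of 26 was a small share beside the background. The median log2 change of the 26 was 0.18, and that of all genes was -0.0042.

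The count was also taken by depth. Of 10 antisense RNAs with a mean count of at least 50 per library, 1 passed, beside 30.5% of all genes in that class. The class has no upper limit and is not matched for depth. Apart from ZNFX1-AS1, AFAP1-AS1 and TP73-AS1, its antisense RNAs averaged 52 to 161 counts. Of 16 with a lower mean count, 0 passed, beside 7.27% of such genes. The median standard error of the log2 change was 0.23 in the deeper class and 0.42 in the other. This split at 50 counts was chosen after the counts of the members were seen.

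**Figure D1:**
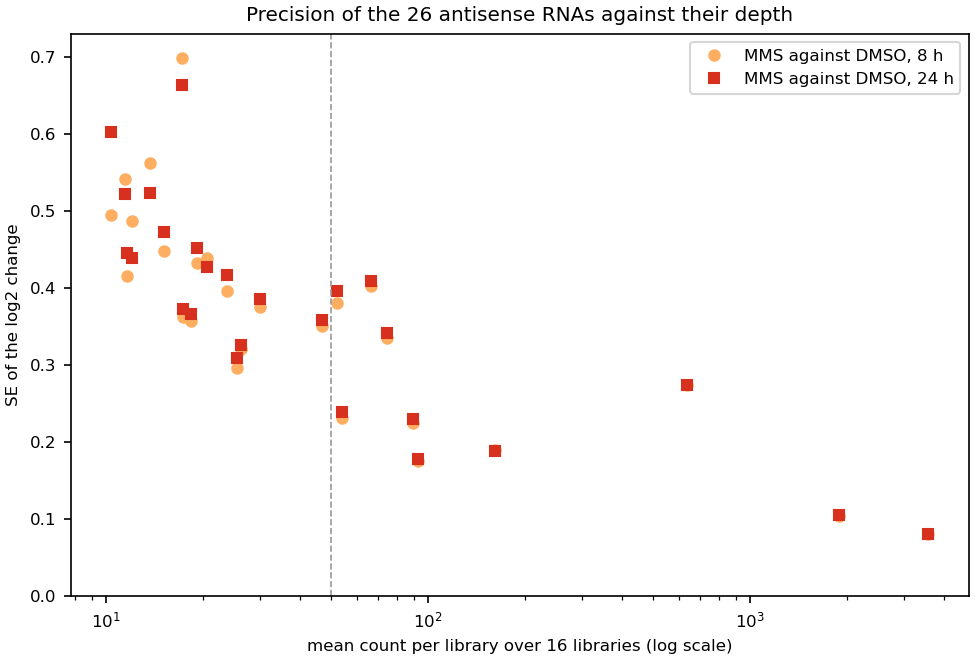
Standard error of the log2 change (y axis) against mean count per library (x axis, log scale) for each of the 26 antisense RNAs, for MMS against DMSO at 8 h (circles) and 24 h (squares). The dashed line marks a mean count of 50; the standard error at 8 h was 0.08 for ZNFX1-AS1 and reached 0.70 for TLR8-AS1.

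The titles begin in either of 2 ways, and each group has 1 library of each kind. With that title start as a replicate block, 7 antisense RNAs passed at 8 h, 5 of them higher and 2 lower, beside 43.3% of all genes. Beside ZNFX1-AS1 these were 6 RNAs with no call without the block. TRAF3IP2-AS1 stood at 5.41 and 4.67 CPM in MMS-treated cells, against 3.93 and 3.49 CPM in DMSO-treated cells, with a log2 change of 0.48 ± 0.18 and an adjusted p of 0.062 in edgeR without the block and 0.0238 with it. Its groups did not overlap. The other log2 changes without the block were 0.82 for AKIRIN2-AS1, 0.80 for ZNRD1-AS1, 0.85 for ST7-AS1, -1.14 for TLR8-AS1 and -1.16 for HLA-F-AS1. Their adjusted p-values in edgeR lay between 0.080 (AKIRIN2-AS1) and 0.268 (TLR8-AS1) without the block and between 0.0301 (AKIRIN2-AS1) and 0.0472 (TLR8-AS1) with it.

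At 24 h of MMS, 4 of the 26 antisense RNAs passed, beside 31.5% of all genes: ZNFX1-AS1 and A1BG-AS1 rose, and ZEB1-AS1 and MFI2-AS1 fell. ZNFX1-AS1 had 220 and 209 CPM in MMS-treated cells, against 138 and 136 CPM in DMSO-treated cells. The log2 change was 0.59 ± 0.08 (adjusted p = 0.0003041 in edgeR, n = 2 each), with no overlap between the groups. It was 0.20 ± 0.11 above the log2 change at 8 h, a difference that did not pass (adjusted p = 0.312 in edgeR).

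ZEB1-AS1 had 2.38 and 3.54 CPM in MMS-treated cells, against 5.70 and 6.25 CPM in DMSO-treated cells at 24 h. The groups were apart, as were those of 13 of the 26 antisense RNAs in this comparison, ZEB1-AS1 among them. The log2 change was -1.06 ± 0.23 (adjusted p = 0.0045 in edgeR). Without the first MMS library it was -0.81, and the adjusted p in edgeR was 0.054. That fit leaves 1 title start in the MMS group, and ZEB1-AS1 was higher in the second library of the pair in 8 of 8 groups. Whether the title start bears on the smaller change was not tested. With every library kept, the call held under each of the 7 alternatives, the replicate block included (adjusted p 4.096e-05 to 0.0456 in edgeR or DESeq2). At 8 h ZEB1-AS1 had 3.59 and 4.62 CPM in MMS-treated cells, against 4.41 and 5.99 CPM in DMSO-treated cells. These overlap, and the log2 change of -0.31 ± 0.22 did not pass (adjusted p = 0.358 in edgeR).

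By depth class, 2 of the 10 deeper antisense RNAs passed, beside 35.4% of all genes in that class, and 2 of the 16 others, beside 13.3%. The remaining calls at 24 h, A1BG-AS1 and MFI2-AS1, had mean counts under 50 and are named with their values already seen. A1BG-AS1 had 12 and 12 counts in MMS-treated cells, against 2 and 4 counts in DMSO-treated cells. Its log2 change was 1.74 ± 0.60 (adjusted p = 0.0445 in edgeR). Since it met the count limit through the libraries with MMS, this rise is a description tied to the choice of members. Leaving out any 1 of the 4 libraries ended the call, with adjusted p in edgeR between 0.063 and 0.215. MFI2-AS1, opposite the melanotransferrin gene, had 0.464 and 1.16 CPM in MMS-treated cells, against 2.01 and 1.82 CPM in DMSO-treated cells. Its log2 change was -1.25 ± 0.39 (adjusted p = 0.0267 in edgeR), and -0.77 without the first MMS library (adjusted p = 0.193). The call also ended without either DMSO library (adjusted p = 0.094 and 0.067 in edgeR) and lay at a log2 change of -2.03 (adjusted p = 0.0083) without the second MMS library.

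With the replicate block, 8 antisense RNAs passed at 24 h, 5 higher and 3 lower, beside 48.3% of all genes. TP73-AS1, opposite the p53 relative TP73, was among them. It had 34.9 and 52.5 CPM in MMS-treated cells, against 23.7 and 28.9 CPM in DMSO-treated cells. The groups did not overlap, and the log2 change was 0.68 ± 0.27, with an adjusted p of 0.081 in edgeR without the block and 1.876e-05 with it. TP73-AS1 was higher in the second library of the pair in 8 of 8 groups, by a median log2 ratio of CPM + 0.1 of 0.44. At 8 h it had 22.7 and 29.9 CPM in MMS-treated cells, against 21.5 and 34.2 CPM in DMSO-treated cells, which overlap.

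TTC28-AS1 had 11.1 and 9.71 CPM in MMS-treated cells at 24 h, against 7.43 and 6.64 CPM in DMSO-treated cells. The groups were apart, with a log2 change of 0.51 ± 0.19 and an adjusted p in edgeR of 0.056 without the block and 0.0041 with it. AKIRIN2-AS1 (log2 change 0.78) and TLR8-AS1 (-1.58) also passed in edgeR only with the block, at adjusted p of 0.0452 and 0.0015. TLR8-AS1 was counted in every library, with 275 counts in all, while its sense partner TLR8, an innate immune receptor, had 1 count over the 16 libraries.

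AFAP1-AS1, the second most abundant by counts, did not pass after MMS at either time. It had 93.5 and 86.8 CPM in MMS-treated cells, against 96.8 and 91.0 CPM in DMSO-treated cells at 8 h. At 24 h it had 87.0 and 79.0 CPM in MMS-treated cells, against 91.9 and 86.6 CPM in DMSO-treated cells. The groups overlapped at both times. The 95% interval of the log2 change was -0.25 to 0.20 at 8 h and -0.38 to 0.07 at 24 h.

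**Figure D2:**
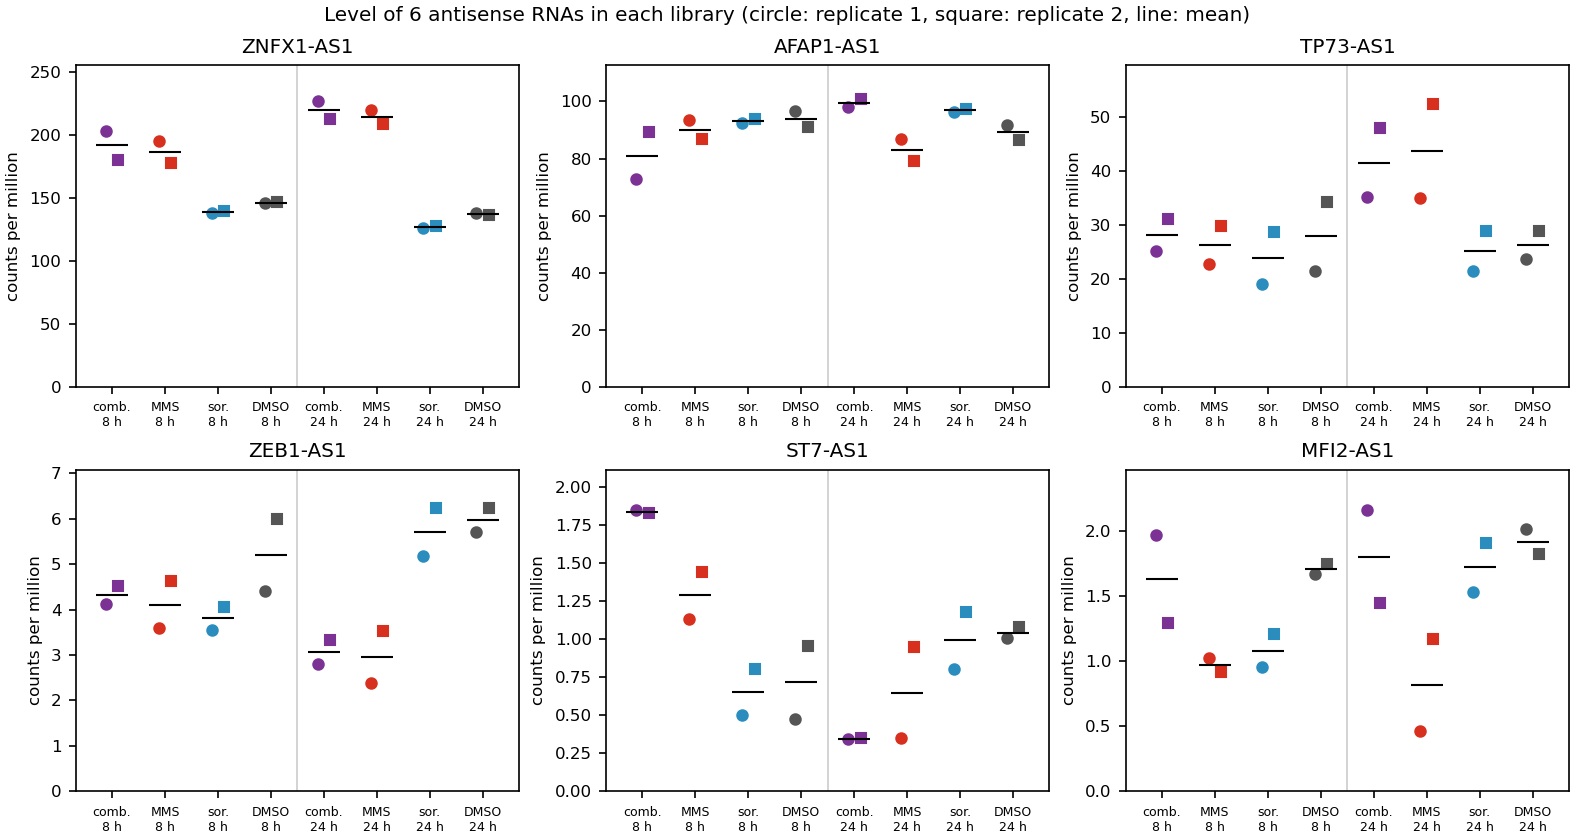
Level in CPM (y axis, from 0) of 6 antisense RNAs in each library, by treatment and time (x axis; comb. is sorafenib then MMS, sor. is sorafenib); the circle is the first library, the square the second, and the line their mean. ZNFX1-AS1 lay between 178 and 227 CPM in the 8 libraries that received MMS and between 126 and 146 CPM in the 8 that did not.

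The effect of MMS at 24 h minus that at 8 h passed for 0 of the 26 antisense RNAs in edgeR, beside 9.13% of all genes. At an unadjusted p under 0.05 in edgeR there were 3, beside 3366 of all 13948 genes. In DESeq2 0 were called, beside 1665 of all genes. An RNA that its filter of sparse genes leaves without an adjusted p counts there as not called. With the block 3 passed, beside 25.5% of all genes. They were TP73-AS1 (difference in log2 change 0.69 with the block), ZEB1-AS1 (-0.76) and ST7-AS1 (-1.55).

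The next question was whether sorafenib alone moved these RNAs. No antisense RNA passed in edgeR at 8 h or 24 h, with 0 at an unadjusted p under 0.05 at either time and 0 in DESeq2. Over all genes 0.394% passed in edgeR at 8 h and 0.817% at 24 h. Of all 13948 genes, 1060 at 8 h and 1260 at 24 h had an unadjusted p under 0.05 in edgeR. DESeq2 called 177 and 294 of all genes. With the block 0 of 26 passed at both times, beside 5.03% of all genes at 8 h and 7.18% at 24 h. ZNFX1-AS1 had 138 and 139 CPM in sorafenib-treated cells, against 146 and 146 CPM in DMSO-treated cells at 8 h. At 24 h it had 126 and 128 CPM in sorafenib-treated cells, against 138 and 136 CPM in DMSO-treated cells. The groups were apart at both times by a small step, and the 95% intervals of the log2 change were -0.24 to 0.12 and -0.30 to 0.05. The log2 changes of the 26 ranged from -1.15 (HLA-F-AS1) to 0.51 at 8 h and from -0.72 (HAS2-AS1) to 0.98 (A1BG-AS1) at 24 h.

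The combination was then set against sorafenib alone. These groups differ in MMS and also in the 12 h of sorafenib before it, which the sorafenib groups are not labelled as having, and their effects cannot be told apart. At 8 h 2 of 26 antisense RNAs rose, ZNFX1-AS1 and ST7-AS1, beside 24.5% of all genes called. ZNFX1-AS1 had 203 and 180 CPM in combination-treated cells, against 138 and 139 CPM in sorafenib-treated cells. The groups were apart, as for 14 of the 26 antisense RNAs here, and the log2 change was 0.44 ± 0.08 (adjusted p = 0.0020 in edgeR). At 24 h it had 227 and 213 CPM in combination-treated cells, against 126 and 128 CPM in sorafenib-treated cells. That gap was again free of overlap, with a log2 change of 0.75 ± 0.08 (adjusted p = 5.428e-05 in edgeR).

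ST7-AS1 lies opposite ST7, named as a suppressor of tumorigenicity, and its mean count was under 50, so it too is named with its values already seen. At 8 h it had 1.85 and 1.83 CPM in combination-treated cells, against 0.50 and 0.803 CPM in sorafenib-treated cells. The log2 change was 1.47 ± 0.44 (adjusted p = 0.0281 in edgeR). At 24 h it had 0.341 and 0.350 CPM in combination-treated cells, against 0.807 and 1.18 CPM in sorafenib-treated cells, a fall with a log2 change of -1.54 ± 0.47 (adjusted p = 0.0239 in edgeR). The groups were apart at both times, in opposite directions.

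These levels rest on 31 and 34 counts in the combination libraries and 11 and 16 counts in the sorafenib libraries at 8 h, and on 9 and 8 counts in the combination libraries and 19 and 21 counts in the sorafenib libraries at 24 h. Leaving out any 1 of the 4 libraries at 8 h ended the call (adjusted p 0.051 to 0.191 in edgeR), as did DESeq2 (adjusted p = 0.0548). At 24 h the call ended without either combination library or without the second sorafenib library (adjusted p 0.097 to 0.127 in edgeR). In the comparison of MMS with DMSO the log2 change of ST7-AS1 was 0.85 ± 0.43 at 8 h and -0.70 ± 0.45 at 24 h, and neither passed in edgeR without the block.

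At 24 h of the combination 3 of 26 antisense RNAs passed against sorafenib, beside 36.8% of all genes. ZNFX1-AS1 rose, and ZEB1-AS1 and ST7-AS1 fell. ZEB1-AS1 had 2.81 and 3.32 CPM in combination-treated cells, against 5.18 and 6.23 CPM in sorafenib-treated cells. The groups were apart, as for 13 of the 26 antisense RNAs in this comparison. The log2 change of ZEB1-AS1 was -0.94 ± 0.23 (adjusted p = 0.0067 in edgeR). Without the first combination library its adjusted p in edgeR was 0.061, and without the second sorafenib library it was 0.051. With every library kept, the call held under each of the 7 alternatives, the replicate block included (adjusted p 6.861e-05 to 0.0306 in edgeR or DESeq2). At 8 h ZEB1-AS1 had 4.11 and 4.52 CPM in combination-treated cells, against 3.55 and 4.06 CPM in sorafenib-treated cells. Its log2 change of 0.16 ± 0.23 at 8 h did not pass.

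With the replicate block 7 antisense RNAs passed at 8 h against sorafenib, 6 higher and 1 lower, beside 39.8% of all genes, and 6 at 24 h, 3 in each direction, beside 54.3%. At 8 h the added ones were TTC28-AS1 (log2 change 0.38 with the block), RBM26-AS1 (0.54), ZNRD1-AS1 (1.06), HLA-F-AS1 (1.29) and MCM3AP-AS1 (-1.07). At 24 h they were TP73-AS1 (0.68 with the block), TTC28-AS1 (0.43) and ENTPD3-AS1 (-1.49), whose fall is tied to the choice of members in the same way as the rise of A1BG-AS1. TP73-AS1 had 35.1 and 47.9 CPM in combination-treated cells at 24 h, against 21.4 and 28.9 CPM in sorafenib-treated cells. Its groups did not overlap, and its adjusted p in edgeR was 0.069 without the block and 8.515e-06 with it.

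**Figure D3:**
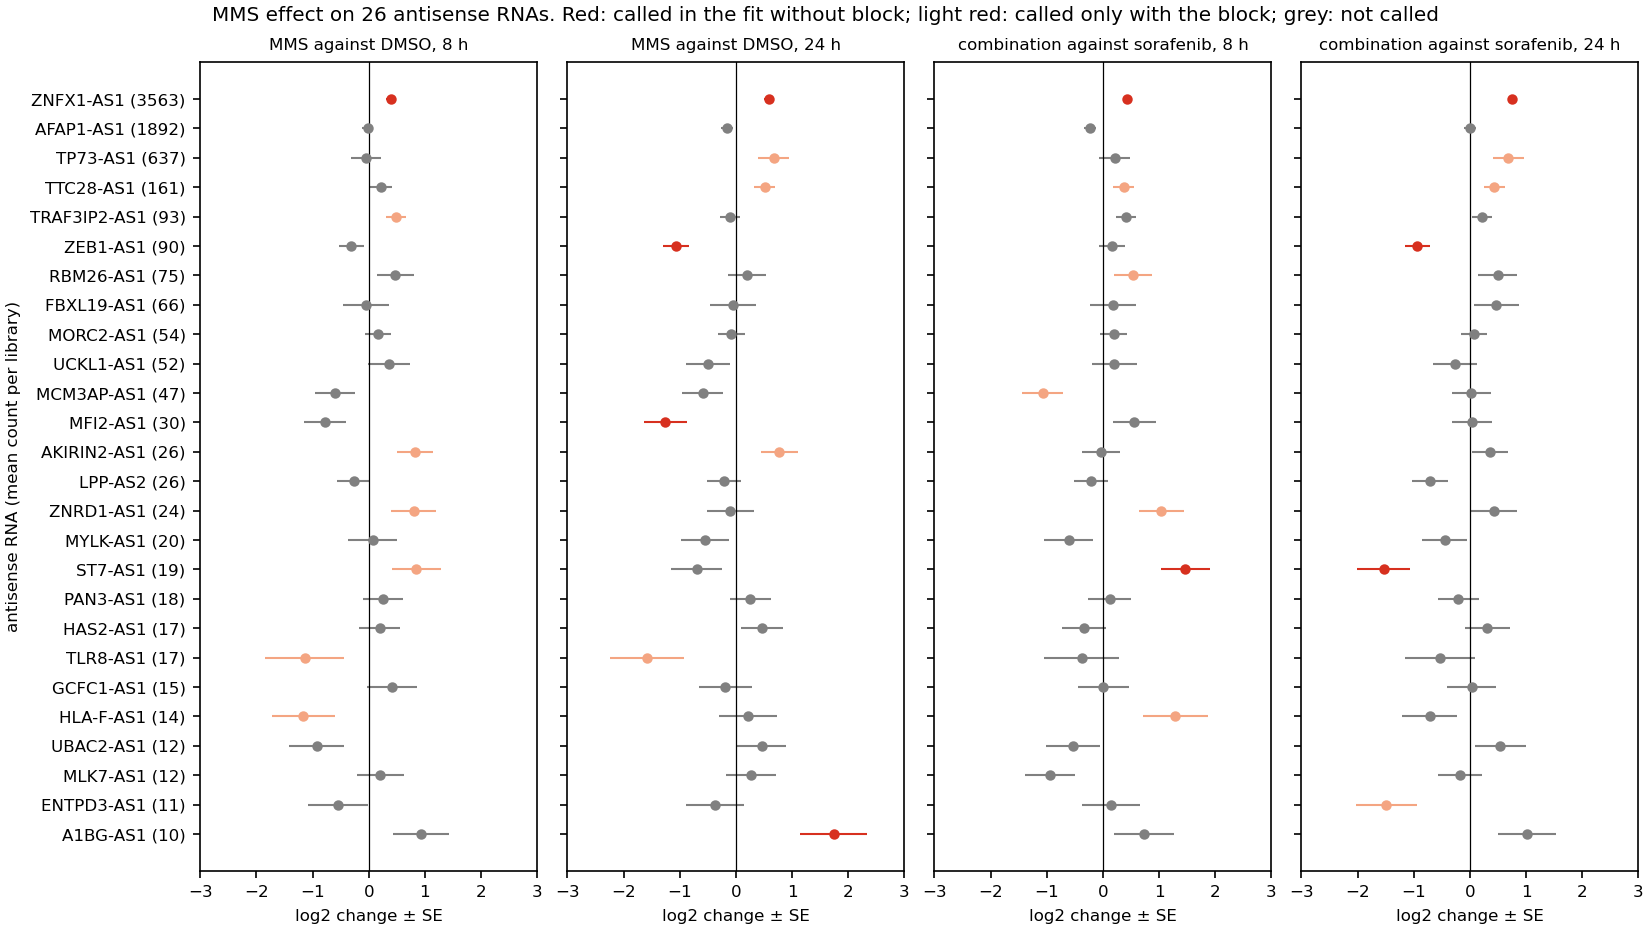
Log2 change with its standard error (x axis) of the 26 antisense RNAs (y axis, with the mean count per library in brackets) for MMS against DMSO and for the combination against sorafenib, at 8 h and 24 h. ZNFX1-AS1 lay to the right of 0 in all 4 panels, from 0.39 to 0.75, and the errors widen towards the RNAs with few counts at the bottom.

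Because ST7-AS1 had passed in opposite directions, the difference between the times was tested, a contrast added after these values were seen. The log2 change of the combination against sorafenib at 24 h minus that at 8 h passed for 2 of 26 antisense RNAs, both lower at 24 h, beside 12.0% of all genes. The difference was -3.01 ± 0.64 for ST7-AS1 (adjusted p = 0.0126 in edgeR). It was -1.10 ± 0.32 for ZEB1-AS1 (adjusted p = 0.046 in edgeR), and leaving out any 1 of the 8 libraries ended that call (adjusted p 0.079 to 0.145). With the block 6 passed, beside 30.4% of all genes, among them ZNFX1-AS1 with a difference of 0.31.

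Sorafenib before MMS was finally compared with MMS alone. No antisense RNA passed in edgeR at 8 h or 24 h, with 2 and 4 at an unadjusted p under 0.05 and 0 in DESeq2. Over all genes 0.624% passed in edgeR at 8 h and 0.122% at 24 h. Of all 13948 genes, 1921 at 8 h and 689 at 24 h had an unadjusted p under 0.05 in edgeR. DESeq2 called 366 and 86 of all genes. With the block 0 of 26 passed at both times, beside 9.51% of all genes at 8 h and 2.03% at 24 h. ZNFX1-AS1 had 203 and 180 CPM in combination-treated cells, against 195 and 178 CPM in MMS-treated cells at 8 h, and 227 and 213 CPM in combination-treated cells, against 220 and 209 CPM in MMS-treated cells at 24 h. These overlapped at both times, and the 95% intervals of its log2 change were -0.19 to 0.17 and -0.14 to 0.21. At 24 h MFI2-AS1 had 2.16 and 1.44 CPM in combination-treated cells, against 0.464 and 1.16 CPM in MMS-treated cells. Those groups were apart, but the log2 change of 1.12 ± 0.38 did not pass (adjusted p = 0.664 in edgeR).

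The interaction of sorafenib and MMS holds the same 12 h of sorafenib. It passed in edgeR for 0 of the 26 antisense RNAs at both times, beside 0% of all genes. At an unadjusted p under 0.05 in edgeR there were 2 at 8 h and 1 at 24 h, beside 505 and 304 of all 13948 genes. In DESeq2 0 of the 26 were called at either time, beside 1 gene at each. With the block 0 of the 26 passed, beside 0.0502% of all genes at 8 h and 0.0287% at 24 h. DMSO at 24 h against DMSO at 8 h likewise gave 0 of 26 in edgeR, beside 0.66% of all genes, and 0 with the block, beside 13.6%. At an unadjusted p under 0.05 in edgeR it gave 0, beside 2257 of all genes, and in DESeq2 0, beside 531.

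Sense partners were set beside their antisense RNAs, and 25 of the 26 partners were tested, TLR8 being the exception. After MMS 9 partners passed at 8 h, 3 higher and 6 lower, and 10 at 24 h, 4 higher and 6 lower, beside 26.5% of all genes at 8 h and 31.5% at 24 h. Both members of a pair passed in 0 pairs at 8 h and in 1 pair at 24 h, MFI2-AS1 with MFI2. MFI2 had 49.6 and 59.0 CPM in MMS-treated cells, against 65.8 and 80.5 CPM in DMSO-treated cells at 24 h. The signs matched in 14 of 25 pairs at 8 h and in 11 of 25 at 24 h. The difference in change between the members of a pair was not tested.

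ZNFX1, an RNA helicase gene of the antiviral response, had 187 and 224 CPM in MMS-treated cells, against 174 and 189 CPM in DMSO-treated cells at 8 h. These overlap, and the log2 change of 0.22 ± 0.14 passed only with the block (adjusted p = 0.291 in edgeR without it and 0.0495 with it). At 24 h its log2 change was -0.04 ± 0.14 after MMS, where ZNFX1-AS1 rose by 0.59, and in the combination against sorafenib it was -0.06 at 8 h and 0.02 at 24 h. ZEB1 had 65.5 and 86.9 CPM in MMS-treated cells, against 95.7 and 104 CPM in DMSO-treated cells at 24 h. Its groups were apart, but the log2 change of -0.45 ± 0.22 passed only with the block (adjusted p = 0.144 in edgeR without it).

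AFAP1, MYLK and HAS2 are named with their values already seen, and belong to pairs whose antisense RNA did not pass. AFAP1, a gene for an actin filament binding protein, fell where AFAP1-AS1 did not pass. AFAP1 had 120 and 133 CPM in MMS-treated cells, against 223 and 227 CPM in DMSO-treated cells at 8 h (log2 change -0.79 ± 0.12, adjusted p = 0.0003416 in edgeR), and its log2 change at 24 h was -0.45 ± 0.11. MYLK, which encodes a myosin light chain kinase, had 12.2 and 9.88 CPM in MMS-treated cells, against 50.9 and 41.6 CPM in DMSO-treated cells at 24 h. That is a log2 change of -2.13 ± 0.29, and MYLK-AS1 had a log2 change of -0.55 that did not pass. HAS2, a hyaluronan synthase gene, had 108 and 131 CPM in MMS-treated cells, against 49.4 and 74.2 CPM in DMSO-treated cells at 8 h, a log2 change of 0.99 ± 0.31, and HAS2-AS1 had a log2 change of 0.19 that did not pass.

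ST7 fell at 8 h of MMS, to 12.4 and 11.8 CPM in MMS-treated cells against 16.8 and 18.0 CPM in DMSO-treated cells. In the combination ST7 had 13.5 and 12.4 CPM, against 17.0 and 18.8 CPM in sorafenib-treated cells at 8 h, where ST7-AS1 rose. Those groups did not overlap, and the log2 change of ST7 was -0.49 ± 0.10 (adjusted p = 0.0042 in edgeR). This was the 1 pair of 25 with both members called at 8 h of the combination against sorafenib, and at 24 h there were 0 such pairs, with 13 partners called, beside 36.8% of all genes. At 24 h the log2 change of ST7 was 0.13 and did not pass.

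**Figure D4:**
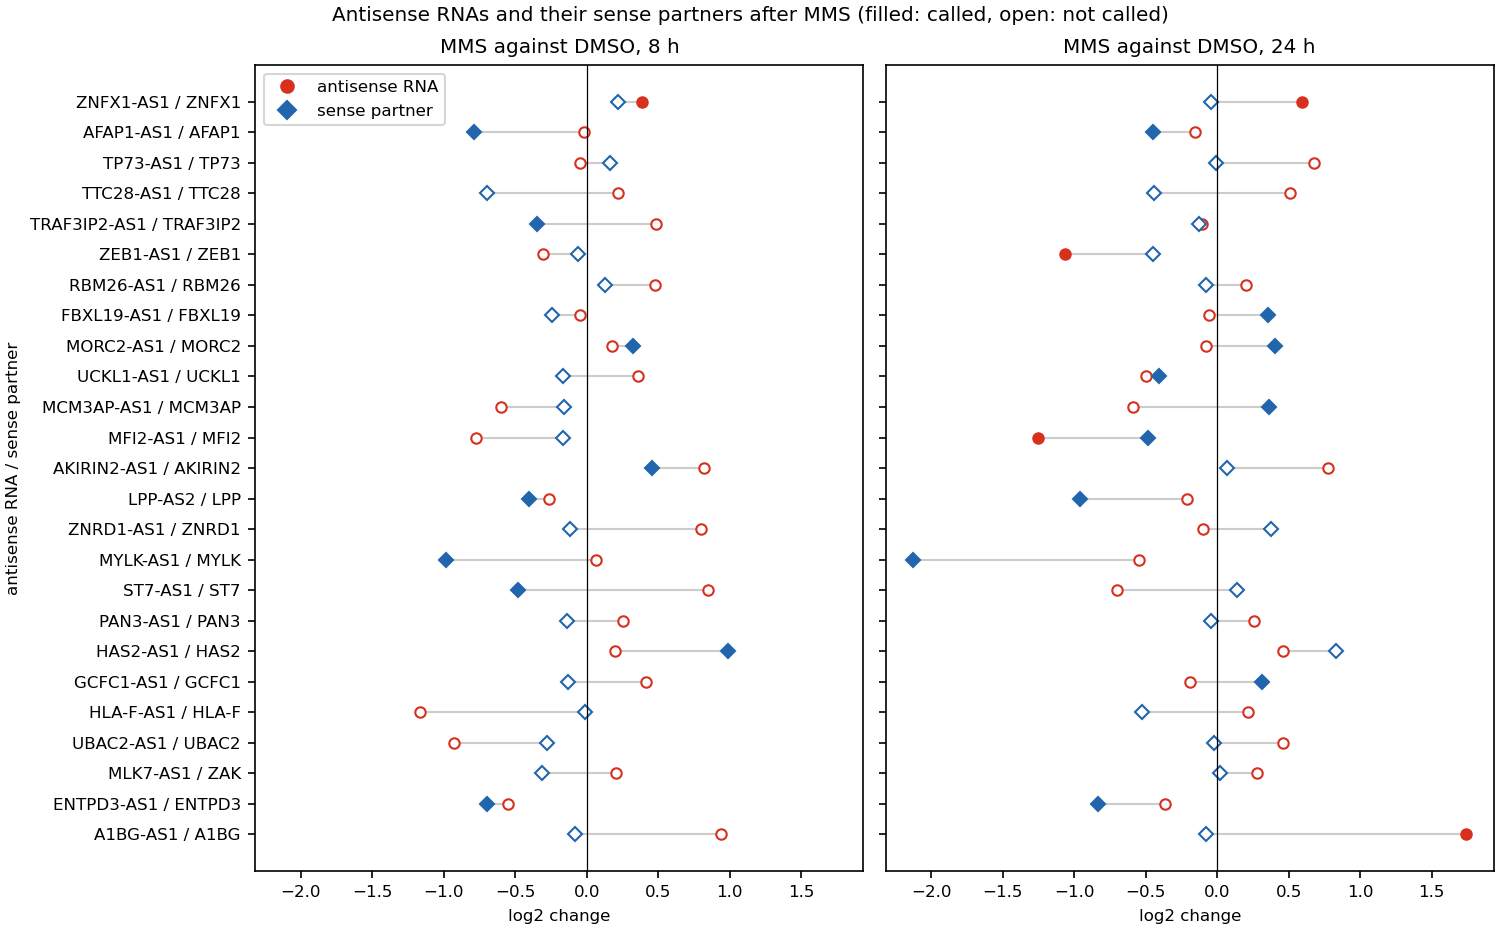
Log2 change after MMS against DMSO (x axis) at 8 h and 24 h for 25 antisense RNAs (circles) and their sense partners (diamonds), 1 pair per row; filled symbols passed at an adjusted p under 0.05 in edgeR without the block. AFAP1 lay at -0.79 and AFAP1-AS1 at -0.02 at 8 h, and MYLK lay at -2.13 and MYLK-AS1 at -0.55 at 24 h.

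Some antisense RNAs start beside a gene other than the one they are named for. TTC28-AS1 starts 70 bases from PITPNB, a phosphatidylinositol transfer protein gene, which rose at 8 h of MMS by a log2 change of 0.55 ± 0.09 (adjusted p = 0.0006376 in edgeR). At 24 h PITPNB had a log2 change of 0.24 ± 0.09 that did not pass without the block (adjusted p = 0.054 in edgeR). GCFC1-AS1 starts 67 bases from SYNJ1, a gene of synaptic vesicle recycling, which had log2 changes of 0.52 at 8 h and 0.52 at 24 h, both past the test in edgeR. TRAF3IP2-AS1 starts 50 bases from REV3L, the catalytic subunit gene of a translesion DNA polymerase, and REV3L had log2 changes of 0.21 ± 0.15 at 8 h and -0.04 ± 0.15 at 24 h that did not pass. LSS, a sterol synthesis gene beside MCM3AP-AS1, had 0.25 ± 0.10 at 8 h and -0.13 ± 0.10 at 24 h, and PTPLB, beside MYLK-AS1, had -0.08 ± 0.13 and -0.01 ± 0.13, none of which passed without the block. CCDC27, beside TP73-AS1, had 0 counts and was not tested. GCFC1-AS1 itself had log2 changes that did not pass at either time.

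Role lists of antisense and LINC symbols were mostly empty in these files. Of 7 genes tied to genome stability 1 was tested, TP73-AS1, and of 22 tied to growth of cancer cells 2 were tested, ZEB1-AS1 and ADAMTS9-AS2. ADAMTS9-AS2, below the count limit, had log2 changes after MMS of -0.52 ± 0.81 at 8 h and 0.33 ± 0.77 at 24 h that did not pass. Of 29 antisense to growth and stress genes 2 were tested, HAS2-AS1 and ST7-AS1, and neither passed after MMS without the block. None of the symbols listed for 15 antisense RNAs of the HOX clusters, 8 small protein genes with a LINC symbol and 5 microRNA and protein binders was in the files. HOXB13-AS1, with 3 counts, and HOXA11-AS1, with 0, were in the files under symbols not on the list and below the count limit.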

How the data were processed

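Gene-level read counts of 16 RNA-seq libraries (total RNA, TruSeq, per the labels' protocols) were deposited by the authors as raw counts, with no normalization. Per the submitters' processing notes, CASAVA 1.8.2, TopHat2 2.0.8b, HTSeq and hg19 were used; the strand setting, annotation and HTSeq version are not given in the sources used here. The 5 counter rows were kept out of library sizes: reads in no gene were 6.88 to 7.94% and non-unique alignments 29.5 to 31.5%.

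Counts were tested in R 4.3.3 with edgeR 4.0.16: TMM factors (0.954 to 1.06), filterByExpr (13948 genes, all 26 members kept), 1 mean per group, quasi-likelihood F test on 8 residual degrees of freedom, and Benjamini-Hochberg adjustment over all genes tested, with calls at an adjusted p under 0.05. Log2 changes are relative to the library's other genes. The code of the fit was run on simulated counts as a self-test, with a fixed spread close to that of these data. Replicate libraries of a group differed by a chi-square per degree of freedom of 14.3 to 20.0 and so were distinct.

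Over 28 pairs of groups, libraries with the same title start (MDA231 or MDAMB231) deviated together, with correlations of 0.489 to 0.707. That start therefore served as a replicate block, an inference from the data, since the labels do not say what it marks. Other alternatives were RLE factors, library totals, no filter, a minimum mean of 50 counts, DESeq2 1.42.0, only the libraries compared, and leaving out each library. DESeq2 was run with its filter of sparse genes, and a gene without an adjusted p counts as not called.

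Named by rule were the 8 members with the highest mean level and called members averaging 50 counts or more whose groups do not overlap. Sense partners of the latter, called members of role lists and those at the 160 limit were also named by rule. Other members and partners were named with their values already seen. Members and lists were chosen with earlier results of these data known.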

Additional observations from a re-analysis of the deposited data

Results flagged for a closer look

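Both results below differ between 8 h and 24 h by a direct test, and were examined after the data were seen. The log2 change of the combination against sorafenib at 24 h minus that at 8 h was -3.01 for ST7-AS1 (adjusted p = 0.0126 in edgeR, and 0.026 to 0.0497 with any 1 of the 8 libraries left out). All 4 libraries that received the combination lay beyond both sorafenib libraries of their time, above them at 8 h and below them at 24 h. Its counts per library were 6 to 34.

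The same difference was -1.10 for ZEB1-AS1 (adjusted p = 0.046 in edgeR). Leaving out any 1 of the 8 libraries ended that call (adjusted p 0.079 to 0.145 in edgeR), as did library totals only, no low-count filter and only the libraries compared (adjusted p up to 0.067 in edgeR). The other 4 of the 7 alternatives, the replicate block among them, kept that call (lowest adjusted p = 0.0017, in edgeR or DESeq2). The combination libraries lay above both sorafenib libraries at 8 h, by a change that did not pass, and below both at 24 h. Without sorafenib the difference between times was -0.75 for ZEB1-AS1 and -1.55 for ST7-AS1, and each passed in edgeR only with the replicate block (adjusted p = 0.0209 and 0.0256).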

How the results depend on the processing

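ZNFX1-AS1 kept its direction and its call in MMS against DMSO and in the combination against sorafenib, at both times. This held under each of the 7 alternatives (adjusted p up to 0.0440 in edgeR or DESeq2) and with each library left out. The combination and sorafenib groups also differ in the 12 h of sorafenib before MMS. The number of antisense RNAs called moved more, and the number over all 13948 genes moved too. MMS against DMSO at 8 h gave 7 with the replicate block instead of 1, beside 6036 of all genes instead of 3694. At 24 h the 4 calls became 8 with the replicate block, 2 with a mean count of at least 50, 2 with only the libraries compared, and 1 to 4 with 1 library left out. The combination against sorafenib at 8 h, with 2 calls, gave 7 with the replicate block, 1 each with DESeq2, a mean count of at least 50 and only the libraries compared, and 1 to 2 with 1 library left out. At 24 h its 3 calls became 6 with the replicate block, 4 with DESeq2 or no low-count filter, 2 under the minimum mean of 50, and 1 to 4 with 1 library left out. The combination against MMS at 8 h gave 0 to 1 with 1 library left out. The MMS effect at 24 h minus 8 h gave 3 with the replicate block instead of 0. For the combination against sorafenib that difference, with 2 calls, gave 6 with the replicate block, 1 with library totals only, no low-count filter, a mean count of at least 50, DESeq2 or only the libraries compared, and 1 to 2 with 1 library left out. With 1 library left out the log2 change at 8 h of MMS ran from -0.089 to 0.027 for AFAP1-AS1 and from -0.34 to 0.30 for TP73-AS1, on either side of 0 and never past the test. Over all genes the block moved the calls from 4394 to 6730 at 24 h of MMS. In the combination against sorafenib it moved them from 3420 to 5545 at 8 h and from 5126 to 7578 at 24 h. The difference between times went from 1273 to 3561 for MMS and from 1671 to 4238 for the combination against sorafenib. For the latter comparison DESeq2 called 3495 genes at 8 h, 5088 at 24 h and 2140 in the difference. For the other settings all-gene calls are not given here. The causes of these moves were not tested. A mean count of at least 50 leaves 10 of the 26 to be tested. In DESeq2 an RNA without an adjusted p counts as not called. With 2 libraries a group and mean counts of 10.4 to 3563 per library, changes in the sparse antisense RNAs are resolved only where large: the standard error reached 0.70 at 8 h of MMS.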

Other observations

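Long non-coding RNAs with names of their own, outside the antisense rule, were counted in the same libraries. Of 39 listed, 25 were in the files and 20 were tested. At 8 h of MMS 2 of 20 fell, beside 26.5% of all genes: DLEU1 (log2 change -0.74 ± 0.13, adjusted p = 0.0012 in edgeR), first described at a locus deleted in leukemia, and MIR210HG (-1.96 ± 0.64, adjusted p = 0.0399), the host transcript of a hypoxia-induced microRNA. At 24 h 4 of 20 passed, beside 31.5% of all genes. MIR210HG (-3.03 ± 0.62, adjusted p = 0.0032 in edgeR) and HCP5 (-0.89 ± 0.23, adjusted p = 0.0115), an RNA of the HLA region, fell. UCA1 (1.34 ± 0.34, adjusted p = 0.0104 in edgeR) and PVT1 (0.56 ± 0.13, adjusted p = 0.0059), both known from carcinomas, rose. DLEU1 was not lower at 24 h, with a log2 change of 0.32 ± 0.13 that did not pass (adjusted p = 0.074 in edgeR). Its MMS effect at 24 h minus 8 h was 1.06 ± 0.18 (adjusted p = 0.0044 in edgeR), the 1 of 20 to pass, beside 9.13% of all genes. With the replicate block 6 of 20 passed at 8 h, beside 43.3% of all genes, and 8 at 24 h, beside 48.3%. After sorafenib alone 0 of 20 passed in edgeR at either time, beside 0.394% of all genes at 8 h and 0.817% at 24 h. With the block 1 passed at 8 h, beside 5.03% of all genes, and 0 at 24 h, beside 7.18%. The abundant nuclear RNAs NEAT1 and MALAT1 had log2 changes of -0.65 ± 0.34 and -0.38 ± 0.29 at 8 h of MMS that did not pass.

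The title start moved with several antisense RNAs. Beside TP73-AS1, the library whose title begins MDAMB231 was the higher of its pair in 8 of 8 groups for ZEB1-AS1, FBXL19-AS1, TLR8-AS1 and HLA-F-AS1, and the lower in all 8 for TTC28-AS1. The median log2 ratio of CPM + 0.1 was 0.77 for TLR8-AS1 and -0.20 for TTC28-AS1.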
